A study of Homo sapiens with 12 samples.

Results

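The 10 genes described here are chemokines, a cytokine and feedback genes of the transcription factor NF-kB, chosen by name from the 20015 genes of a deposited count table: CXCL1, CXCL2, CXCL3, CXCL8, CCL20, IL1A, NFKBIA, TNFAIP3, BIRC3 and RELB. Their RNA was measured in HT29, an established human colorectal adenocarcinoma line, here carrying the Cas9 nuclease. Cells received lentivirus with either a non-targeting guide (called WT) or a guide against QRICH1 (called QRICH1 KO), and each kind of cell was kept for 14 h in 0.3 µg/ml tunicamycin (Tm) or in its solvent, DMSO. The drug stops N-glycan assembly at its opening step, so that misfolded glycoproteins collect in the endoplasmic reticulum (ER) and ER stress follows. The 4 groups are WT DMSO, WT Tm, and the same treatments of QRICH1 KO, with 3 libraries each, described by the submitters as biological replicates. Every group thus carries Cas9 and a lentiviral guide, and whether the QRICH1 KO cells were a pool or a single clone is not given in the sources used here. The question addressed was how these genes stood in the 4 groups and whether loss of QRICH1, a transcription regulator linked to the ER stress response, went with a different response to Tm.

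NF-kB is a family of dimeric transcription factors that is held in the cytoplasm by inhibitor proteins of the IkB family. Receptor signals through IL-1, TNF or Toll-like receptors activate the IkB kinase complex, which marks the inhibitor for degradation and frees the dimer to enter the nucleus and bind kB sites in promoters. Among its targets are chemokines that draw in neutrophils and lymphocytes, and genes that shut the pathway off again. CXCL1, CXCL2, CXCL3 and CXCL8 are ELR chemokines, named for a short amino acid motif, and attract neutrophils through CXCR1 and CXCR2. CCL20 attracts CCR6-bearing lymphocytes and dendritic cells to mucosal epithelium, and IL1A encodes interleukin-1 alpha, an alarm cytokine held in epithelial cells. NFKBIA encodes the inhibitor IkB alpha, TNFAIP3 the ubiquitin-editing enzyme A20, BIRC3 the ubiquitin ligase cIAP2, and RELB a subunit of the non-canonical NF-kB dimer. All of these are themselves NF-kB targets.

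The proximal promoters are shown because CXCL1 and CXCL2, which were called in opposite directions under Tm in WT, carried the same kB letters. Promoter sequences were taken from RefSeq (GRCh38.p14), and 9 of the 10 genes matched, with 10 windows of 300 bases among them; RELB did not match. The kB motif was searched as GGNNNTTCC, the AP-1 motif as TGANTCA and a C/EBP-ATF motif as TGATGNAA, each on both strands, and no matches overlapped. A kB match stood in 8 of the 9 genes, against 20.1% of all 35116 windows in the table. The genes were chosen as NF-kB genes, so this contrast is a description only. Here and below, genes are set against single windows. An AP-1 match stood in 2 genes, CXCL8 and IL1A, against 7.71% of all windows. The C/EBP-ATF motif was in 0 of the 9 genes, against 3.62% of all windows. Other forms of C/EBP site were not searched, so their absence is not shown. A match describes letters in this window only. The 150 bases before the start site of 6 genes are given 5′ to 3′ on the strand of the gene, with kB and AP-1 matches in capitals. They lie at chr4:73869243-73869392 (CXCL1, plus strand), chr4:74099196-74099345 (CXCL2, minus strand), chr4:74038690-74038839 (CXCL3, minus strand), chr4:73740419-73740568 (CXCL8, plus strand), chr14:35404750-35404899 (NFKBIA, minus strand) and chr2:112784494-112784643 (IL1A, minus strand).
CXCL1: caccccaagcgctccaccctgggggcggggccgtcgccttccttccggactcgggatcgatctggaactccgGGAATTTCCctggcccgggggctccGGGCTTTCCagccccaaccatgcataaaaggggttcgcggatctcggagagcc
CXCL2: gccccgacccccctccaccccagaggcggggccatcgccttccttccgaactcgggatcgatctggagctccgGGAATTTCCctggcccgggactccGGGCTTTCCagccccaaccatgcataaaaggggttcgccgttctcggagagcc
CXCL3: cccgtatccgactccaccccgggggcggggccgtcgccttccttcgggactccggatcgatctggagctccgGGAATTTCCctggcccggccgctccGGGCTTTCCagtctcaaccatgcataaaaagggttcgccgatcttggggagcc
CXCL8: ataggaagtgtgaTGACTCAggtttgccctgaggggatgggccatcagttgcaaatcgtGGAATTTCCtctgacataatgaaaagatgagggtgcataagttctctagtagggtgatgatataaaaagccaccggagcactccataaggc
NFKBIA: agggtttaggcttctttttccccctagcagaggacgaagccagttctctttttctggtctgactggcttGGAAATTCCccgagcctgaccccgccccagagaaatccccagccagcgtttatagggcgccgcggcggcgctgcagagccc
IL1A: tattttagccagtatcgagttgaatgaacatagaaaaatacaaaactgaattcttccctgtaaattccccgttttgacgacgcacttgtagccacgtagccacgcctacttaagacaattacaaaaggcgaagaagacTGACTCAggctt

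CXCL1, CXCL2 and CXCL3 each held GGAATTTCC followed by GGGCTTTCC. The first match lay at -78 to -70 from the start site in CXCL1 and CXCL3 and at -77 to -69 in CXCL2, and the second at -53 to -45 in all 3 genes. CXCL8 held GGAATTTCC at -91 to -83 and the AP-1 match TGACTCA at -137 to -131. NFKBIA held 1 of its kB matches, GGAAATTCC, at -81 to -73. IL1A had 2 windows, each with its own start site, and the bases printed precede the first. Neither window held a kB match, and both held the same 2 AP-1 matches. The match printed, TGACTCA, lay at -12 to -6 from the first start and at -105 to -99 from the second. The other, TGAGTCA, lay at 38 to 44 from the first start and at -55 to -49 from the second. The 4 ELR chemokine genes lie within 358788 bases of one another on chromosome 4 (hg38, GENCODE 29 gene models), CXCL8 at 73740506-73743716, CXCL1 at 73869393-73871242, CXCL3 at 74036589-74038807 and CXCL2 at 74097035-74099293.

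The libraries held 6856736 to 17861844 counts, so that 3 counts correspond to 0.168 to 0.438 counts per 1000000 (CPM) of these unscaled totals. The CPM given for genes are also TMM-scaled (a scaling between libraries), which moves this floor. For CCL20, 3 counts were 0.46 CPM in WT Tm library 3. Library 3 of QRICH1 KO DMSO and library 3 of QRICH1 KO Tm stood apart, with 15340 and 14813 genes detected against 13124 to 14094 in the other 10 libraries. Without both of them, CXCL2, IL1A and NFKBIA were still called with Tm in QRICH1 KO, and 0 of the genes described here between genotypes. Over all genes, those called by genotype under DMSO went from 11 to 59 when both were left out. The epithelial markers KRT8 (34070 to 59640 CPM) and EPCAM (1486 to 2003 CPM) were high in every library. Of 9 epithelial markers tested, 1 was called higher with Tm and 2 lower in WT, 1 higher and 1 lower in QRICH1 KO. In WT, CLDN7 was 1.78-fold higher (adjusted p = 7.5e-05), VIL1 1.74-fold lower (adjusted p = 6.02e-05) and KRT19 1.56-fold lower (adjusted p = 0.022), and in QRICH1 KO, CLDN7 was 1.56-fold higher and KRT19 1.52-fold lower. The intestinal factor CDX1 had 1 count over all libraries together and CDX2 0.226 to 1.44 CPM. Of the leukocyte markers, PTPRC reached at most 0.272 CPM and CD3E was listed at 0 in all libraries, while LYZ stood at 1832 to 2651 CPM. The summed leukocyte list, nearly all of it LYZ, ran from 2299 to 2609 CPM in WT DMSO, 1835 to 1927 in WT Tm, 2026 to 2654 after DMSO in QRICH1 KO cells, and 2089 to 2354 after Tm in those cells, and LYZ (1.28-fold, adjusted p = 0.0305) and CD14 (2.62-fold, adjusted p = 0.0499) were called lower with Tm in WT. The part of these marker shifts in the results below was not tested. The fibroblast list summed to at most 1.69 CPM and the endothelial list to at most 3.04 CPM. The targeted gene QRICH1 had 29.6 ± 6.26 CPM in WT DMSO, 29.2 ± 3.04 in WT Tm, and for QRICH1 KO 24.1 ± 0.714 after DMSO and 22.8 ± 3.84 after Tm (SD, n = 3 each). Its genotype difference was not called under either treatment by edgeR's quasi-likelihood test (adjusted p = 0.577 under DMSO and 0.352 under Tm), and a count over the whole gene does not show whether the guide disrupted the reading frame.

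Compared per transcript length, NFKBIA was the most abundant of the 10 genes in all 4 groups and CXCL8 the next. In WT DMSO, TPM (counts scaled by exon length and by library) were 56.9 ± 1.5 for NFKBIA, 37.9 ± 7.52 for CXCL8, 12.02 ± 2.19 for CXCL1 and 7.60 ± 1.55 for RELB (SD, n = 3), each apart from its neighbour by more than these spreads. CXCL3 (1.48 ± 1.60 TPM), CXCL2 (1.16 ± 0.274 TPM) and BIRC3 (1.06 ± 0.119 TPM) followed and could not be ordered within their spread. TNFAIP3 (0.589 ± 0.374 TPM), CCL20 (0.259 ± 0.252 TPM) and IL1A (0.207 ± 0.207 TPM) came last, again without a clear order. The resting order in QRICH1 KO put TNFAIP3 (1.45 ± 0.129 TPM) between CXCL3 (1.60 ± 0.0982 TPM) and CXCL2 (1.39 ± 0.179 TPM), with IL1A lowest at 0.0732 ± 0.0634 TPM. TPM are not TMM-scaled, so they are used for order within a group and not for change with Tm. From WT DMSO to WT Tm, the RELB mean went from 7.60 to 7.30 TPM but from 6.62 to 7.61 CPM. In WT Tm the leading genes were NFKBIA at 28.7 ± 1.01 TPM, CXCL8 at 18.4 ± 2.42 TPM and RELB at 7.30 ± 1.15 TPM. Below them, CXCL1 at 5.38 ± 1.95 TPM and CXCL2 at 4.73 ± 2.43 TPM stood level within their spread, and IL1A at 2.28 ± 0.757 TPM was followed by CCL20 at 1.72 ± 1.06 TPM, CXCL3 at 1.70 ± 0.231 TPM, BIRC3 at 1.03 ± 0.286 TPM and TNFAIP3 at 0.733 ± 0.118 TPM. RELB and CXCL1 also overlapped in their spread. The same 6 genes had the highest means in QRICH1 KO Tm, from NFKBIA at 39.5 ± 6.76 TPM and CXCL8 at 27.0 ± 2.38 TPM to CXCL2 at 4.46 ± 1.35 TPM and IL1A at 2.44 ± 0.798 TPM.

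**Figure D1:**
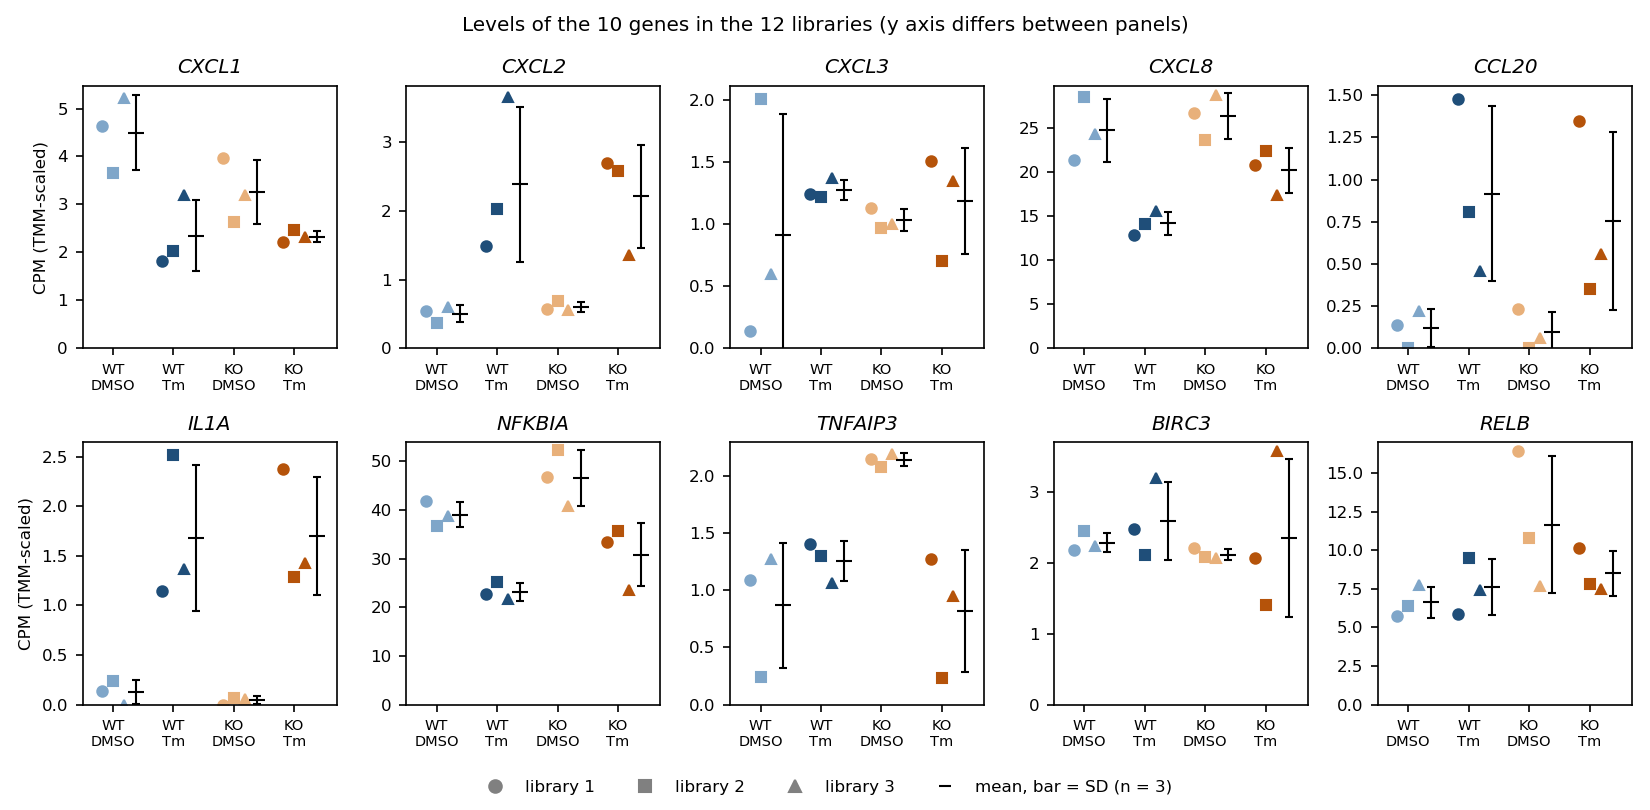
Levels in CPM (y axis, linear and different in each panel) of the 10 genes in the 12 libraries, by group on the x axis; symbols are libraries 1 to 3 and the line with its bar is the mean and SD (n = 3), with bars that would run below 0 ending at the axis. CXCL8 and NFKBIA lie lower in Tm than in DMSO libraries of each genotype, and CXCL2, CCL20 and IL1A lie higher.

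All tests below compare groups of 3 libraries in 1 fit over 11323 genes, and a gene is called when its adjusted p is under 0.05. CCL20 missed the count filter, so 9 of the 10 genes were tested. IL1A and CXCL2 passed it only through the Tm libraries, all 6 of which exceeded the filter's 0.781 CPM while all 6 DMSO libraries were under it, so counts over the tested genes are descriptions only. In bulk RNA, fewer cells making a transcript and less transcript per cell cannot be told apart. In WT, Tm went with 2 genes called higher (CXCL2, IL1A) and 3 called lower (CXCL1, CXCL8, NFKBIA), beside 23.8% of all tested genes called (12.6% higher, 11.1% lower). In QRICH1 KO, CXCL2 and IL1A were called higher and NFKBIA lower, beside 15.6% of all genes (9.09% higher, 6.53% lower). The median log2 fold change of the 9 genes was 0.19 in WT and -0.39 in QRICH1 KO, and that of all tested genes was -0.0239 and -0.0039. Tm and DMSO libraries did not overlap for 5 of the 9 genes in WT, against 37.5% of all genes, and for 6 of 9 in QRICH1 KO, against 32.4%.

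CXCL8, the neutrophil chemokine interleukin-8, fell under Tm in WT cells. Its CPM was 21.36, 28.50 and 24.33 in WT DMSO and 12.87, 14.14 and 15.51 in WT Tm. Every Tm library lay below every DMSO library, and the gene was 1.76-fold lower (log2 fold change -0.82, SE 0.16, adjusted p = 0.000847). In QRICH1 KO the CPM was 26.62, 23.57 and 28.77 under DMSO and 20.78, 22.36 and 17.34 under Tm. These groups did not overlap either, but the log2 fold change of -0.39 (SE 0.15) was not called (adjusted p = 0.0942). The WT call held with any 1 library left out, with log2 fold changes from -0.91 to -0.70.

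CXCL1, a further neutrophil chemokine, also fell in WT. The CPM values were 4.63, 3.65 and 5.21 in WT DMSO and 1.81, 2.03 and 3.19 in WT Tm, without overlap. The gene was 1.97-fold lower (-0.98 on the log2 scale, SE 0.31, adjusted p = 0.0274). In QRICH1 KO the values were 3.96, 2.63 and 3.19 CPM under DMSO and 2.22, 2.46 and 2.31 CPM under Tm. The Tm libraries were again all lower, but the log2 difference of -0.49 (SE 0.30) was not called (adjusted p = 0.303). The WT call was lost without WT DMSO library 1 (-0.96, adjusted p = 0.0598) or 3 (-0.84, adjusted p = 0.102), and without WT Tm library 1 (-0.81, adjusted p = 0.125) or 2 (-0.89, adjusted p = 0.0964).

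CXCL2, a close relative of CXCL1 in sequence and in the same gene cluster, rose in both genotypes. WT DMSO libraries had 0.54, 0.37 and 0.60 CPM, against 1.48, 2.03 and 3.65 CPM with Tm. The lowest Tm library was above the highest DMSO library, and the gene was 4.63-fold higher (log2 fold change 2.21, SE 0.51, adjusted p = 0.00352). In QRICH1 KO it had 0.57, 0.69 and 0.56 CPM under DMSO and 2.70, 2.58 and 1.35 CPM under Tm, again without overlap and 3.58-fold higher (log2 fold change 1.84, SE 0.47, adjusted p = 0.0115). The QRICH1 KO call was lost without QRICH1 KO Tm library 1 (1.66, adjusted p = 0.0546). CXCL2 and CXCL1, whose printed promoters hold the same pair of kB matches, were thus called in opposite directions in WT.

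CXCL3 had no called change. Its CPM was 0.14, 2.01 and 0.60 in WT DMSO, 1.24, 1.22 and 1.37 in WT Tm, and, for QRICH1 KO, 1.13, 0.97 and 1 after DMSO and 1.51, 0.70 and 1.35 after Tm. The WT DMSO libraries held both the lowest and the highest value of all 12. The log2 fold change with Tm was 0.32 (95% interval -0.91 to 1.55) in WT and 0.23 (-0.96 to 1.41) in QRICH1 KO. CXCL1, CXCL2 and CXCL3 share part of their transcripts: 4.81%, 12.5% and 6.01% of their 50-base stretches occur in another of the 3 genes. How reads matching more than 1 gene were counted is not given in the sources used here, so the split among these 3 genes is uncertain to that extent. CXCL8 shared no 50-base stretch with another gene.

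IL1A, the alarm cytokine, was close to absent without Tm and present in every Tm library. Its raw counts were 1, 4 and 0 in WT DMSO and 14, 31 and 9 in WT Tm, which is 0.14, 0.24 and 0.00 against 1.15, 2.52 and 1.37 CPM. In QRICH1 KO they were 0, 1 and 1 under DMSO and 30, 11 and 18 under Tm, or 0.00, 0.07 and 0.06 against 2.38, 1.29 and 1.43 CPM. No DMSO library reached any Tm library in either genotype. The gene rose in both, by 3.59 on the log2 scale (SE 0.74, adjusted p = 0.00149) in WT and 5.06 (SE 0.82, adjusted p = 0.000282) in QRICH1 KO. With so few counts under DMSO the size is loose. Pooled counts were 54 against 5 in WT and 59 against 2 in QRICH1 KO. Per TMM-scaled library total, the ratios were 12.96 (exact 95% interval 5.22 to 41.5) and 42.1 (11.2 to 356). These intervals cover counting error only. Left-out libraries moved the fitted 12.03-fold WT rise to 28.8-fold without WT DMSO library 2 and to 7.94-fold without WT DMSO library 3.

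CCL20, the mucosal lymphocyte chemokine, followed the same order at a lower level and was not part of the test. Its counts were 1, 0 and 3 in WT DMSO, 18, 10 and 3 in WT Tm, and, for QRICH1 KO, 4, 0 and 1 after DMSO and 17, 3 and 7 after Tm. In CPM, the Tm libraries (1.48, 0.81 and 0.46 in WT; 1.35, 0.35 and 0.56 in QRICH1 KO) were all above the DMSO libraries of their genotype (0.14, 0.00 and 0.22; 0.23, 0.00 and 0.06). Pooled counts were 31 against 4 in WT, a ratio per TMM-scaled library total of 9.30 (exact 95% interval 3.29 to 36.3, counting error only). In QRICH1 KO they were 27 against 5, a ratio of 7.71 (2.92 to 25.6). When edgeR's test was run without the count filter, CCL20 was called in WT (log2 fold change 2.96, adjusted p = 0.0394) and not in QRICH1 KO (2.80, adjusted p = 0.0598). Some left-out libraries also let CCL20 past the filter, and the calls then went either way: WT missed the threshold without WT DMSO library 1 (3.11, adjusted p = 0.0585) or 2 (2.28, adjusted p = 0.133) or WT Tm library 2 (3.12, adjusted p = 0.0528), and was at 4.16 without WT DMSO library 3 (adjusted p = 0.0339). QRICH1 KO passed it without QRICH1 KO DMSO library 1 (4.19, adjusted p = 0.0386), QRICH1 KO Tm library 2 (3.10, adjusted p = 0.0495), or WT DMSO library 2 (2.80, adjusted p = 0.0413) or 3 (2.81, adjusted p = 0.0489). These calls do not compare the genotypes. Without the count filter, edgeR's test gave a genotype difference under Tm of -0.297 (log2, SE 0.88, adjusted p = 0.988). The interaction was -0.165 (SE 1.65). A genotype difference was not shown for CCL20, and SEs of this size do not show that the genotypes were alike.

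NFKBIA, the IkB alpha gene and the most direct feedback inhibitor of the pathway, fell in both genotypes. WT libraries had 41.78, 36.60 and 38.69 CPM after DMSO, and 22.68, 25.28 and 21.59 CPM after Tm. The groups were far apart, and the gene was 1.67-fold lower (log2 fold change -0.74, SE 0.15, adjusted p = 0.00152). In QRICH1 KO it had 46.80, 52.26 and 40.78 CPM under DMSO and 33.40, 35.59 and 23.47 CPM under Tm, which was 1.52-fold lower without overlap (log2 fold change -0.60, SE 0.15, adjusted p = 0.00977). The QRICH1 KO call was lost without QRICH1 KO DMSO library 2 (-0.51, adjusted p = 0.0659) or QRICH1 KO Tm library 3 (-0.43, adjusted p = 0.0596), while the WT call held with any 1 library left out.

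TNFAIP3, which encodes A20, was scarce and was not called in either genotype. Its counts were 8, 4 and 17 in WT DMSO, 17, 16 and 7 in WT Tm, and, for QRICH1 KO, 38, 30 and 35 after DMSO and 16, 2 and 12 after Tm. In CPM these were 1.09, 0.24 and 1.27, then 1.4, 1.30 and 1.06, then 2.15, 2.08 and 2.19, and last 1.27, 0.23 and 0.95. The 3 QRICH1 KO DMSO libraries were thus the highest of all 12. The Tm difference was 0.62 (log2, SE 0.57, adjusted p = 0.486) in WT and -1.31 (SE 0.53, adjusted p = 0.107) in QRICH1 KO. The gene overlaps an antisense gene, AL357060.1, on the opposite strand. The library kit as described does not mark strand, so reads from any bases in exons of both genes cannot be told apart by strand. The overlap was found from whole-gene spans, and whether the exons overlap was not tested.

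BIRC3, which encodes cIAP2, stayed between 1.4 and 3.58 CPM in all 12 libraries. Both of these extremes were QRICH1 KO Tm libraries. Its log2 fold change with Tm was 0.15 (95% interval -0.60 to 0.90) in WT and 0.17 (-0.56 to 0.91) in QRICH1 KO, and neither was called (adjusted p = 0.815 and 0.792). RELB, the non-canonical subunit, had 5.72, 6.39 and 7.74 CPM in WT DMSO, against 5.86, 9.51 and 7.45 CPM with Tm, with overlapping groups (log2 fold change 0.19, SE 0.27, adjusted p = 0.673). In QRICH1 KO it had 16.45, 10.81 and 7.69 CPM under DMSO and 10.15, 7.84 and 7.48 CPM under Tm (log2 fold change -0.46, SE 0.26, adjusted p = 0.26). The highest value of all 12 libraries was QRICH1 KO DMSO library 1.

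**Figure D2:**
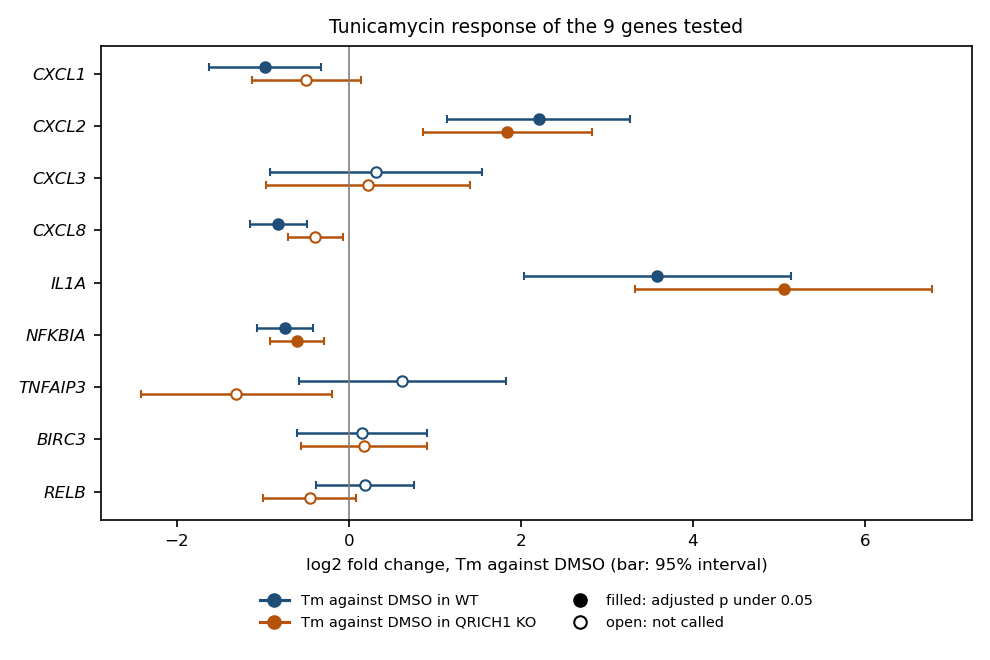
Log2 fold change of Tm against DMSO (x axis) with its 95% interval for the 9 tested genes (y axis), in WT and in QRICH1 KO, each from 3 against 3 libraries; filled points have an adjusted p under 0.05. CXCL2 and IL1A lie to the right of 0 in both genotypes, NFKBIA lies to the left in both, and CXCL1 and CXCL8 are filled in WT.

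Between the genotypes, 0 of the 9 genes were called under Tm and 0 under DMSO, beside 1.17% of all tested genes under Tm (0.406% higher, 0.76% lower) and 0.0971% under DMSO (0.0177% higher, 0.0795% lower). At an unadjusted p under 0.05, 2 of the 9 genes passed in each, as did 1513 of all genes under Tm and 1027 under DMSO. DESeq2 called 0 of the 9 in each, and 289 and 60 of all genes. Under Tm, the lowest p was that of CXCL8, whose QRICH1 KO libraries (17.34 to 22.36 CPM) were all above the WT libraries (12.87 to 15.51 CPM). The log2 difference was 0.51 (SE 0.16, 95% interval 0.18 to 0.85, adjusted p = 0.148), and CXCL8 was the 1 gene of the 9 whose genotypes did not overlap under Tm, against 18.5% of all genes. NFKBIA, the other gene with an unadjusted p under 0.05, had 23.2 ± 1.89 CPM in WT Tm and 30.8 ± 6.46 CPM in QRICH1 KO Tm (log2 difference 0.40, 95% interval 0.08 to 0.73, adjusted p = 0.256), and its libraries overlapped. TNFAIP3 had a larger difference with a wider interval (-0.56, 95% interval -1.76 to 0.63). For the genes that rose with Tm, the genotype difference under Tm was -0.07 for CXCL2 (95% interval -0.98 to 0.84) and 0.01 for IL1A (-1.11 to 1.13), intervals that still allow close to a 2-fold difference either way.

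Under DMSO, TNFAIP3 and RELB had 95% intervals above 0 but missed the adjusted threshold. TNFAIP3 had 0.866 ± 0.546 CPM in WT and 2.14 ± 0.0556 CPM in QRICH1 KO, a log2 difference of 1.37 (SE 0.53, 95% interval 0.24 to 2.49, adjusted p = 0.454). It was the 1 gene of the 9 whose genotypes did not overlap under DMSO, against 13.5% of all genes. RELB had 6.62 ± 1.03 CPM in WT and 11.7 ± 4.44 CPM in QRICH1 KO, with a log2 difference of 0.81 (SE 0.26, 95% interval 0.26 to 1.36, adjusted p = 0.345). QRICH1 KO DMSO library 3 overlapped the WT libraries, and without the count filter RELB was called (0.81, adjusted p = 0.0467).

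**Figure D3:**
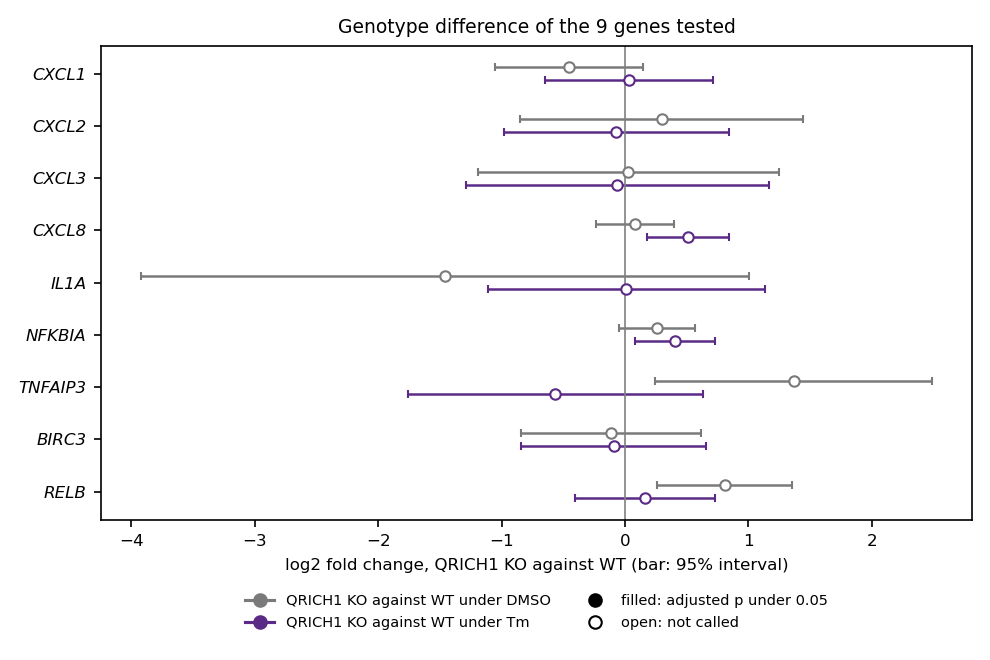
Log2 fold change of QRICH1 KO against WT (x axis) with its 95% interval for the 9 tested genes (y axis), under DMSO (grey) and under Tm (purple), from 3 against 3 libraries; filled points would have an adjusted p under 0.05, and all points are open. The intervals of CXCL8 and NFKBIA under Tm and of TNFAIP3 and RELB under DMSO lie above 0.

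Whether the Tm response itself differed between genotypes was tested as an interaction, and 0 of the 9 genes were called, as were 0 of all 11323 genes. At an unadjusted p under 0.05, 1 of the 9 genes (TNFAIP3) and 774 of all genes passed, and DESeq2 called 0 and 46. TNFAIP3 had the largest value, -1.93 on the log2 scale (SE 0.78, adjusted p = 0.659), its group mean in QRICH1 KO being above that of WT under DMSO and below it under Tm. For CXCL8, called lower in WT alone, the interaction was 0.43 (SE 0.22, adjusted p = 0.737). For CXCL1, also called in WT alone, it was 0.48 (95% interval -0.42 to 1.39). A difference in response was therefore not shown for any of these genes, and the intervals do not show that the responses were alike.

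The ligands' receptors, the rest of the pathway, and AP-1 and C/EBP factors were read from 8 lists of 116 genes, of which 86 were tested. In WT, Tm went with 21 genes called higher, 7 lower and 58 not called (median log2 fold change 0.09). Of all tested genes, 23.8% were called there (12.6% higher, 11.1% lower). In QRICH1 KO, 12 were called higher, 5 lower and 69 not called (median -0.04), beside 15.6% of all genes (9.09% higher, 6.53% lower). The AP-1 and C/EBP list, with 12 genes tested, held 6 of the 21 higher calls in WT and 4 of the 12 in QRICH1 KO. It held 0 of the lower calls in either, so these totals do not describe the NF-kB pathway alone. Between genotypes 0 of the 86 were called, beside 1.17% of all genes under Tm and 0.0971% under DMSO. The interaction was called for 0 of the 86 and 0 of all genes. CXCR1 and CXCR2, the receptors for the ELR chemokines, and CCR6, the receptor for CCL20, had group means of at most 0.11 CPM, and IL6 was listed at 0 in all libraries. IL1R1, the receptor for interleukin-1, had group means of at most 0.436 CPM.

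Upstream, the receptor list had 4 genes higher and 1 lower of 6 tested in WT, and 2 higher in QRICH1 KO. IL1RAP, the shared accessory chain of interleukin-1 family receptors, had 1.5, 1.28 and 1.19 CPM in WT DMSO, against 5.44, 3.41 and 7.30 CPM with Tm, 4.03-fold higher (adjusted p = 0.00125). TNFRSF12A, the receptor for TWEAK, was 1.71-fold higher in WT (adjusted p = 0.000493) and 1.43-fold higher in QRICH1 KO (adjusted p = 0.0166). The TNF receptor gene TNFRSF1A was called higher in both genotypes, and in WT the lymphotoxin receptor gene LTBR was called higher and TLR4 lower. The signal relay list had 2 higher (RBCK1, RIPK2) and 3 lower (CARD10, MYD88, TRAF2) of 27 tested in WT, and 3 higher (RBCK1, XIAP, RIPK2) and 2 lower (TAB1, MYD88) in QRICH1 KO. RBCK1, a subunit of the linear ubiquitin ligase, was 2.75-fold higher in WT (adjusted p = 2.61e-08) and 1.86-fold higher in QRICH1 KO (adjusted p = 1.87e-05). MYD88, the adaptor for interleukin-1 and Toll-like receptors, went the other way, 1.62-fold lower in WT (adjusted p = 0.000338) and 1.42-fold lower in QRICH1 KO (adjusted p = 0.00761). The QRICH1 KO call of MYD88 was lost when both QRICH1 KO libraries 3 were left out (-0.41, adjusted p = 0.0781).

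Of the 4 other NF-kB subunits, NFKB1 was the 1 called, and lower in both genotypes. NFKB1 encodes the precursor of the p50 subunit. WT libraries had 37.97, 34.95 and 30.81 CPM after DMSO, and 21.94, 21.54 and 28.58 CPM after Tm, 1.45-fold lower (adjusted p = 0.0107). In QRICH1 KO it was 1.402-fold lower (adjusted p = 0.0245). The call was lost without WT Tm library 1 or 2 in WT (adjusted p up to 0.0577), and without QRICH1 KO DMSO library 2, QRICH1 KO Tm library 1, QRICH1 KO Tm library 3 or both QRICH1 KO libraries 3 in QRICH1 KO (adjusted p up to 0.0996). RELA, the main activating subunit, had 21.3 ± 5.33 CPM in WT DMSO, 25.3 ± 5.72 CPM with Tm, and was not called.

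Among the 14 other inhibitors and deubiquitinases, 2 were higher (NFKBIB, CYLD) and 0 lower in WT, and 0 higher and 2 lower (ZFP36L2, TNIP2) in QRICH1 KO. NFKBIB, which encodes the related inhibitor IkB beta, had 12.25, 18.57 and 18.60 CPM in WT DMSO, against 32.75, 35.52 and 30.71 CPM with Tm, 1.98-fold higher (adjusted p = 0.00013). It thus rose in WT where NFKBIA fell. In QRICH1 KO, NFKBIB was 1.37-fold higher without overlap but just missed the threshold (adjusted p = 0.0515). The list of other target genes had 4 higher (PLAUR, EFNA1, IRF1, SDC4) and 2 lower (CD83, TNFAIP2) of 14 tested in WT and 1 higher (PLAUR) in QRICH1 KO. PLAUR, the urokinase receptor, was 2.49-fold higher in WT (adjusted p = 1.64e-06) and 1.92-fold higher in QRICH1 KO (adjusted p = 0.000137), and TNFAIP2 was 1.84-fold lower in WT (adjusted p = 0.00769). Of 16 other chemokines and cytokines listed, 6 were tested. Of these, 3 were higher in WT (IL23A, IL32, CXCL11) and 2 in QRICH1 KO (IL23A, IL32). IL32 passed the count filter, at 0.781 CPM, only through the Tm libraries (0.91 to 2.03 CPM, against 0.06 to 0.68 with DMSO). CXCL11 exceeded it only in WT Tm libraries 1 and 2 and QRICH1 KO DMSO library 1. The counts for this list are thus descriptions only. IL23A, a subunit of interleukin-23, had 0.27, 1.64 and 0.89 CPM in WT DMSO, against 3.79, 3.17 and 3.50 CPM with Tm, 3.35-fold higher (adjusted p = 0.00716), and was 3.76-fold higher in QRICH1 KO (adjusted p = 0.00333). Without WT DMSO library 2 the WT rise was 5.32-fold.

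The list of AP-1 and C/EBP factors, which act beside NF-kB at promoters such as that of CXCL8, had 6 genes higher (DDIT3, ATF3, ATF4, CEBPB, CEBPG, FOSB) and 0 lower of 12 tested in WT, and 4 higher (DDIT3, ATF3, ATF4, CEBPG) and 0 lower in QRICH1 KO. Its median log2 fold change was 1.11 in WT and 0.45 in QRICH1 KO. DDIT3 (CHOP), ATF3 and ATF4, the transcription factors of the stress arm that runs through eIF2 alpha phosphorylation, were 21.2-fold, 4.52-fold and 3.23-fold higher in WT. They were 13.7-fold, 3.05-fold and 2.44-fold higher in QRICH1 KO, with adjusted p of at most 0.000807 for each of the 3 in both genotypes. Of the 36 calls named by rule from these lists over both genotypes, 18 held under every alternative tried, among them those given with fold changes here for IL1RAP, RBCK1, NFKBIB, PLAUR, TNFAIP2, IL23A, DDIT3, ATF3 and ATF4. The other 18, which include NFKB1, TNFRSF1A, TLR4, CYLD, CD83 and TNFRSF12A in QRICH1 KO, were each lost under at least 1 alternative.

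**Figure D4:**
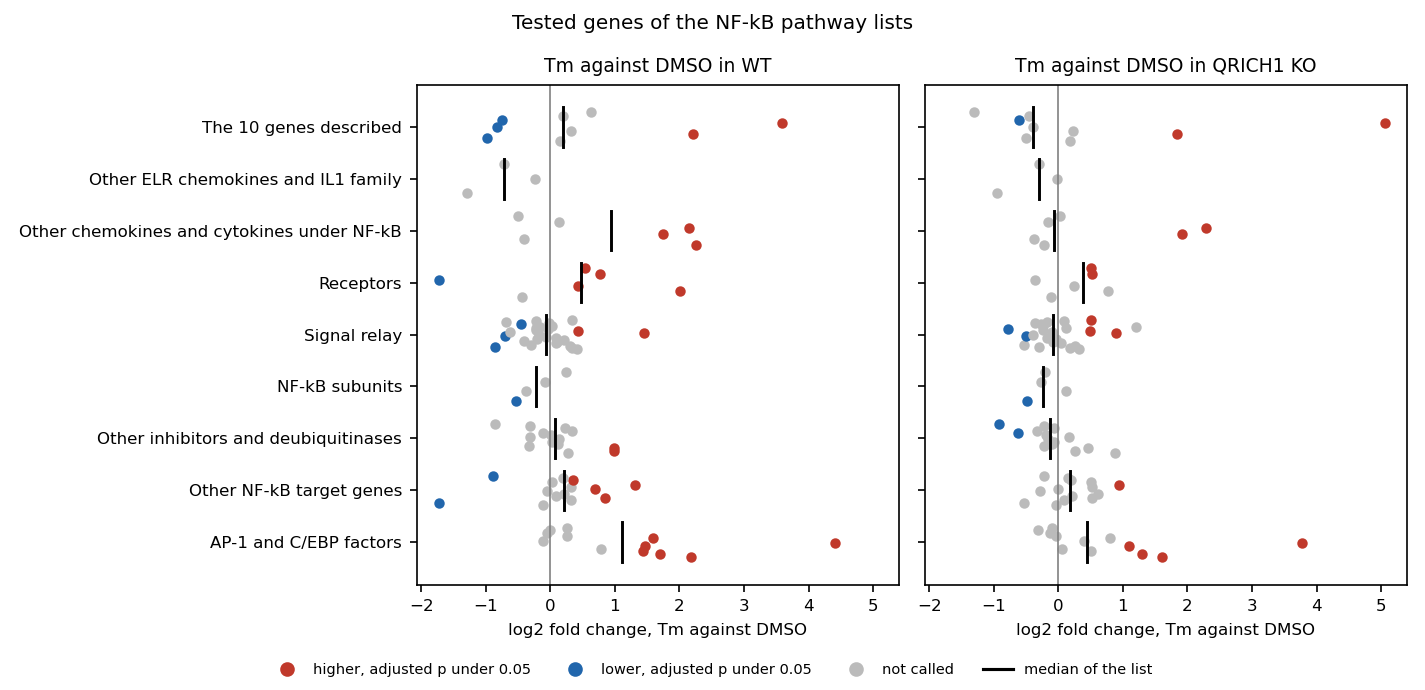
Log2 fold change of Tm against DMSO (x axis) for each tested gene of the 10 genes described and of the 8 lists (rows), in WT and in QRICH1 KO. Red is called higher, blue called lower, grey not called, and the black line is the list's median. IL1A, in the top row, and DDIT3, in the AP-1 and C/EBP row, lie furthest right, while the signal relay and inhibitor rows sit around 0.

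The genes whose 4 group means ran most like those of each gene were found among 10670 tested genes, as the smallest root-mean-square difference of log2 CPM group means after centring. With 4 group means per gene, this is a description of shape only. Among the nearest to CXCL8 were ACAP3 (0.02) and CUEDC1 (0.03). Nearest to NFKBIA were TMEM139 (0.02), FGFR4 (0.03) and ARHGDIB (0.03). CXCL2 had CD55 (0.05), PPP1R15A (0.06) and MSTO1 (0.06) as nearest genes, of which PPP1R15A encodes GADD34, the regulatory subunit that reverses eIF2 alpha phosphorylation. For IL1A, with a far wider range of 3.16 on this scale, the nearest were ADM2 (0.12), CADPS2 (0.23) and SEL1L (0.24). For CXCL1 they were PDGFC (0.04), ATP2B4 (0.04) and PLK4 (0.05), for RELB the first was ZNF296 (0.02), and for TNFAIP3 the closest gene, CTDP1, was 0.22 away.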

How the data were processed

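RNA sequencing libraries of the 12 samples were made with a modified Smart-seq2 protocol and the Nextera XT kit and sequenced on an Illumina NextSeq, per the labels' protocols. The authors deposited 1 table of raw counts per gene for 20015 Ensembl gene IDs. The submitters' processing notes name Trimmomatic, STAR, DESeq2 and the build hg38; versions, counter, strand setting, annotation and treatment of multi-mapped reads are not given in these sources. Symbols and positions came from GENCODE 29.

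The deposited counts were tested with edgeR 4.0.16 in R 4.3.3: TMM scaling, filterByExpr with a minimum count of 10, a quasi-likelihood fit of 4 group means over all 12 libraries, and Benjamini-Hochberg adjustment over 11323 genes (called at an adjusted p under 0.05, two-sided). CPM are TMM-scaled, and TPM use the length of all exons joined. Totals ran from 6856736 to 17861844 counts. All 10 genes are named; from each list, up to 3 called genes per direction with a mean of at least 1 CPM were named by fold change, while IL1R1, IL6, RELA, CXCR1, CXCR2, CCR6, LTBR, SDC4, IL32, CXCL11, CEBPB, CEBPG and FOSB were added after their values were seen, with no alternatives listed for them. The genes and lists were chosen with earlier results of these data known. Alternatives were DESeq2 1.42.0, its size factors in edgeR, no count filter, a replicate block, only the groups compared, and left-out libraries. The fit was tested on simulated data first. 1 gene of the search for like patterns is not reported here. The main fit did not pair libraries by replicate number. Same-numbered libraries of different groups correlated at -0.186 to 0.265 (6 of 18 pairs exceeded 0.1), and differently numbered ones at -0.241 to 0.226. Among WT DMSO, QRICH1 KO DMSO and QRICH1 KO Tm, libraries 1 correlated at 0.11 to 0.213 and libraries 3 at 0.119 to 0.265. There, libraries 2 correlated at -0.024 to 0.002, and libraries 1 with libraries 3 at -0.239 to -0.079. WT Tm library 1 correlated with libraries 1 of the other groups at -0.186 to -0.139, and with their libraries 3 at 0.118 to 0.219. WT Tm library 2 correlated with libraries 1 of the other groups at 0.164 to 0.226. The numbers in WT Tm thus did not follow the pattern of the other groups. Pairing by number was not tested further, apart from the replicate block, which took the numbers as given in every group. Pairing across numbers was not tested.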

Additional observations from a re-analysis of the deposited data

How the results depend on the processing

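The 8 called values of the 10 genes had 143 alternative values, of which 136 kept direction and call, 7 lost the call (all with 1 library left out, given beside the results) and 0 reversed. DESeq2 called 6 of the 10 genes for Tm in WT (CCL20 added), beside 2782 of all genes. In QRICH1 KO it called 2 of the 10, beside 1973 of all genes, and gave IL1A no adjusted p. Of 648 alternative values for the 37 not called, 35 reversed and 1 became called (RELB). None of the 9 tested genes gained or lost a call under the replicate block, and the count of all genes called by genotype under DMSO went from 11 to 17. The block took replicate numbers as given, so it does not check a pairing that runs across numbers in WT Tm. BIRC3's interaction was -0.021 with the block. Genes called by genotype under Tm (132) became 289 with DESeq2 and 279 without the count filter. Those under DMSO (11) became 60 with DESeq2, 138 without the filter (1 of them among the genes described), 6 with only the groups compared and 59 without both QRICH1 KO libraries 3. Interaction calls (0) became 46 with DESeq2 and 44 without the filter; the fit on only the groups compared was not run for it. IL1A's genotype difference under Tm was -0.012 with DESeq2 and -0.014 with its size factors. Without both QRICH1 KO libraries 3, BIRC3's Tm response in QRICH1 KO was -0.28, CXCL2's genotype difference under Tm 0.19, CXCL8's under DMSO -0.002, and the interactions of BIRC3 and QRICH1 -0.42 and 0.094. With 1 library left out, genes called ranged over 1109 to 1858 for Tm in QRICH1 KO (lowest without QRICH1 KO DMSO 2), 56 to 160 for genotype under Tm (56 to 78 without any single Tm library), 5 to 39 for genotype under DMSO (5 without WT DMSO 2, 39 without QRICH1 KO DMSO 3) and 0 to 4 for the interaction (4 without WT DMSO 3). Values that were not called and changed sign ranged, for Tm in WT, over -0.063 to 1.60 for CXCL3 and -0.026 to 0.38 for RELB; for Tm in QRICH1 KO, over -0.26 to 0.41 for BIRC3; for genotype under Tm, over -0.15 to 0.27 for CXCL1, -0.35 to 0.32 for CXCL2, -0.26 to 0.17 for CXCL3, -0.32 to 0.45 for IL1A, -0.53 to 0.15 for BIRC3 and -0.034 to 0.37 for RELB. For genotype under DMSO they were -0.35 to 1.31 for CXCL3 and -0.007 to 0.20 for CXCL8, and for the interaction -0.64 to 0.023 for CXCL2, -1.37 to 0.29 for CXCL3, -0.42 to 0.26 for BIRC3 and -0.19 to 0.095 for QRICH1. The cause was not tested beyond the smaller number of samples or genes in each alternative. Depth limits CCL20, IL1A, CXCL2, CXCL3 and TNFAIP3, with DMSO counts of 0 to 38 a library.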
